A study of Ovis aries with 48 samples.

Results

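Perirenal fat, the pad around the kidney, was set against subcutaneous fat, the depot under the skin, in female sheep (Ovis aries) exposed to testosterone before birth. The 8 libraries are those that the labels give as perirenal (4) and subcutaneous (4) fat of prenatal T sheep 48, 185, 233 and 255, out of 48 libraries in the study, and every sheep gave 1 library of each depot. Mothers of these sheep received 100 mg of testosterone propionate in corn oil by intramuscular injection from gestational day 30 to 90. Control sheep 098, 131, 132 and 201 of the same cohort, whose labels list no testosterone, gave a further 4 perirenal and 4 subcutaneous libraries. All animals were females housed and fed alike, and the labels do not state their age at sampling. The p-values below measure the spread between these 4 sheep. Each library came from total RNA of whole adipose tissue, so that fewer cells of a type and less RNA per cell cannot be told apart.

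Small RNA libraries record microRNAs, short RNAs that repress messenger RNAs, together with snoRNAs, which guide chemical modification of ribosomal RNA, snRNAs of the splicing machinery, and fragments of long non-coding RNAs (lncRNAs). Visceral-type fat such as the perirenal pad and subcutaneous fat arise from different precursor cells and differ in how they expand, and many microRNAs act on the step at which a precursor becomes an adipocyte. The DLK1-DIO3 region is an imprinted stretch of the genome. Its coding genes DLK1, RTL1 and DIO3 are expressed from the chromosome inherited from the father, and its non-coding RNAs, among them a large array of microRNAs and snoRNAs, from the maternal chromosome. In sheep it is known for the callipyge mutation, which causes overgrowth of muscle.

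The 8 libraries held 381319 to 1742991 reads in the 4 RNA classes, with 1046213 to 1742991 in perirenal and 381319 to 740161 in subcutaneous libraries. Depth therefore differed between the depots without overlap. Levels are given below as rescaled reads, which are the recovered reads brought to 1 scale over the 8 libraries within an RNA class. Differences are log2 values of perirenal minus subcutaneous, on log2(rescaled reads + 1), with their SE. They were tested with limma, with sheep as a block, and a feature was called at a Benjamini-Hochberg adjusted p under 0.05 within its class.

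Several libraries stood apart or were ordered with the depots. The perirenal library of sheep 255 resembled the other perirenal libraries least. Over the 162 tested lncRNAs its centred profile had a mean correlation of -0.42 with the other perirenal libraries, against 0.31 to 0.34 for sheep 48, 185 and 233, and over the 81 microRNAs the mean was 0.04, against 0.18 to 0.45. Without sheep 255, 65 features were called higher and 44 lower, and 73 of them were among the 99 called with all 4 sheep. The numbers that the labels give to the libraries ran from 45 to 48 in perirenal and from 21 to 24 in subcutaneous libraries, so that depot and library number cannot be told apart within these 8 libraries.

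Libraries that took no part in the comparison were placed by asking, for every called feature, whether their log2(CPM + 1) lay nearer to the perirenal or to the subcutaneous mean of prenatal T sheep. The perirenal libraries of control sheep 131, 132 and 201, numbered 42 to 44, lay nearer to the perirenal mean in 20 to 24 of 24 lncRNAs, 21 to 23 of 25 snoRNAs, 12 to 24 of 30 microRNAs and 16 to 20 of 20 snRNAs. The perirenal library of control sheep 098, the only perirenal one of a later set numbered from 98, did so in 6 lncRNAs, 10 snoRNAs, 12 microRNAs and 9 snRNAs. Epicardial libraries of prenatal T sheep 185 and 255, fat from around the heart numbered 38 and 40, lay nearer to the perirenal mean in 21 and 19 lncRNAs, 21 and 22 snoRNAs, 25 and 29 microRNAs, and 20 snRNAs each. For the epicardial libraries of sheep 48 and 233, which belong to the later set, the counts were 9 and 4 lncRNAs, 9 and 12 snoRNAs, and 19 microRNAs and 20 snRNAs each. Subcutaneous controls lay nearer to the perirenal mean in 0 to 3 lncRNAs, 2 to 6 snoRNAs and 2 to 5 microRNAs. For snRNAs the counts were 4, 2 and 2 in control sheep 098, 131 and 132, and 18 in control sheep 201, whose subcutaneous library is of the later set. Values in the perirenal library of control sheep 098 are given below for some of the results, and the part of the library number in the results was not tested.

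Among 417 tested features 99 were called (23.7%), 60 higher (14.4%) and 39 lower (9.35%) in perirenal fat, and 150 had an unadjusted p under 0.05. MicroRNAs gave 30 calls of 81 (37.0%), 17 higher (21%) and 13 lower (16%). SnoRNAs gave 25 of 139 (18%), 15 higher (10.8%) and 10 lower (7.19%). SnRNAs gave 20 of 35 (57.1%), 12 higher (34.3%) and 8 lower (22.9%), and lncRNAs 24 of 162 (14.8%), 16 higher (9.88%) and 8 lower (4.94%). In 91 of the 99 the difference had 1 sign in all 4 sheep, which held for 38.4% of all tested features, and in 73 the groups did not overlap, against 21.8% of all. All 30 called microRNAs had 1 sign in the 4 sheep, as had 58.0% of the tested microRNAs. The count fell to 27 without sheep 48, 64 without sheep 185 and 39 without sheep 233. Scaling also bore on the balance: with the depot scaling that the authors deposited, 92 of 125 calls were higher in perirenal fat, and microRNA calls split into 39 higher and 1 lower, or into 24 and 8 on CPM.

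With limma and all 4 sheep, microRNAs of the DLK1-DIO3 region made up 16 of the 17 that rose. Of the 54 in the files, 33 passed the filter on low values, 16 were called higher in perirenal fat and none lower, beside the 21% of tested microRNAs called higher. The median difference of the 33 was 1.27, beside 0.06 over the 81 microRNAs, and 31 were above 0. With no filter on low values 52 could be tested, 16 rose, 47 were above 0 and the median was 0.86. With the scaling as deposited 29 of 33 rose, but so did 39 of all 81 microRNAs, whose median was then 0.98. In the main scaling without sheep 48 or sheep 233, the number that rose was 8 each, of 9 microRNAs that rose in each fit. The region gave 12 of the 18 microRNAs that rose without sheep 255, 17 of 22 with edgeR, 16 of 21 with DESeq2 and 18 of 24 on CPM. Together the DLK1-DIO3 microRNAs took 0.808%, 0.587%, 1.62% and 4.67% of microRNA reads in perirenal fat of sheep 48, 185, 233 and 255, against 0.312%, 0.475%, 0.718% and 0.415% in their subcutaneous fat. The share was higher in perirenal fat in 4 of 4 sheep although the depots overlapped, with an exact sign-flip p of 0.13, which is the smallest that 4 pairs allow. Sheep 255 gave the highest perirenal share, and without this sheep 28 members could be tested, 12 were higher, 24 were above 0 and the median was 0.75.

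MIR495, from the middle of the array, changed most among microRNAs. It had 76.8, 57.1, 134 and 211 rescaled reads in perirenal fat, against 17.5, 14.7, 18.3 and 9.52 in subcutaneous fat of sheep 48, 185, 233 and 255. Every perirenal library was above every subcutaneous one, and the difference was 2.78 (SE 0.51, limma adjusted p = 6.65e-06) and 2.25 without sheep 255. MIR493, which lies at the DLK1 end, had 267, 269, 696 and 680 rescaled reads in perirenal fat, against 81.5, 164, 200 and 79.3 in subcutaneous fat, again with no overlap (difference 1.82, SE 0.45, adjusted p = 0.00094 with limma). MIR379, whose gene begins a dense run of microRNAs, had 585, 448, 887 and 1689 in perirenal fat, against 207, 213, 312 and 218 in subcutaneous fat. Its difference of 1.75 (SE 0.44, limma adjusted p = 0.00094) was 1.35 without sheep 255.

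**Figure D1:**
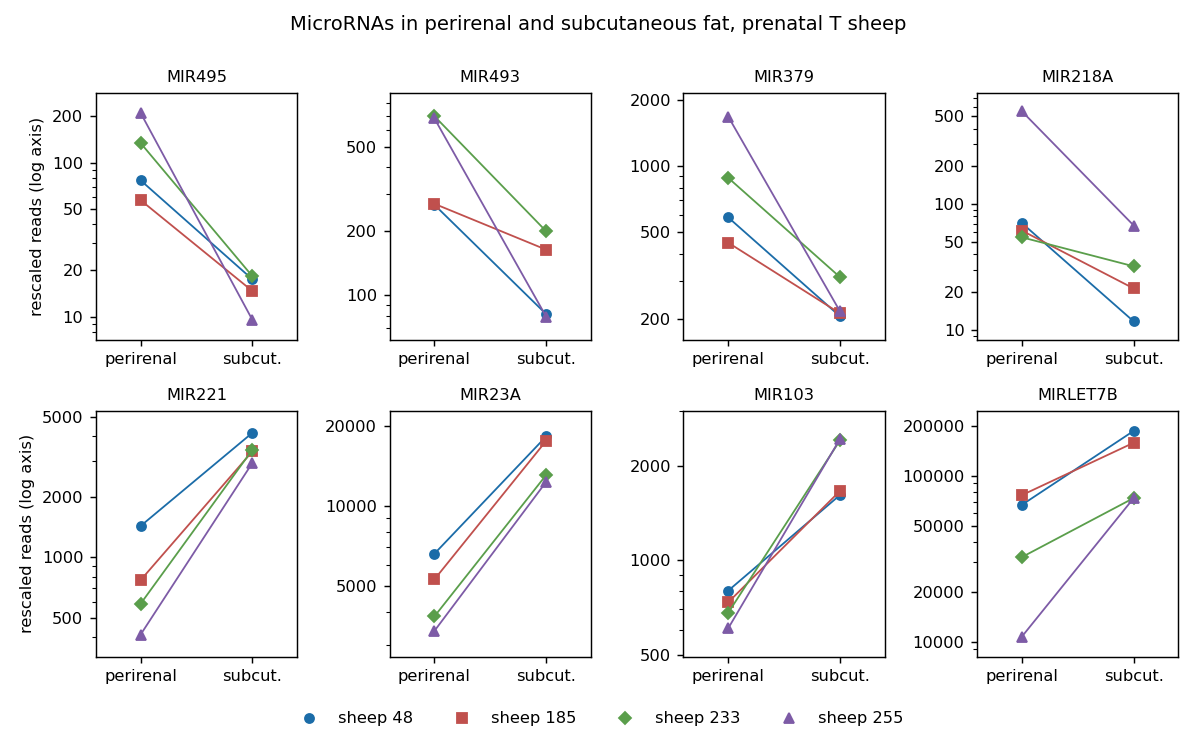
Rescaled reads (log axis) of 8 microRNAs in perirenal (left) and subcutaneous (right) fat of the 4 prenatal T sheep, with a line for each sheep. MIR495, MIR493 and MIR379 were higher and MIR221, MIR23A and MIR103 lower in perirenal fat with no overlap between depots, and sheep 255 holds the highest perirenal value of MIR218A, 549 rescaled reads.

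MIR3959 (difference 2.12), MIR369 (2.11), MIR136 (2.07), MIR329A (1.82), MIR382 (1.76) and MIR381 (1.76) completed the most raised members of the region. MIR381 was at or near 0 in several libraries, with 157 reads over the perirenal and 2 over the subcutaneous libraries, a ratio of 24.2 with an exact 95% counting interval of 6.58 to 201. Of its perirenal values, 1.23, 0.642, 2.87 and 39.7 rescaled reads, that of sheep 255 was far above the others. MIR369 was called without sheep 255 too. Its perirenal values were 39.4, 28.9, 60.2 and 118, against 14.6, 13.3, 17.2 and 5.29 in subcutaneous fat, and its difference without that sheep was 1.39 (limma adjusted p = 0.00259). The other called members were MIR655, MIR370, MIR665, MIR543, MIR411A, MIR329B and MIR487B, with differences of 1.27 to 1.71. MIR136, MIR665 and MIR381 no longer passed the filter without sheep 255, and MIR655 and MIR487B were then not called (adjusted p = 0.112 and 0.0944 with limma).

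The raised members were spread along the array. In gene order from the DLK1 side, 4 of 8 tested microRNAs before MIR379 were called, 6 of 10 from MIR379 to MIR495, and 6 of 15 after MIR495, with medians of 1.33, 1.39 and 1.27. Members lying side by side could differ. MIR380, 3 genes after MIR379, had 62, 18, 78.6 and 221 rescaled reads in perirenal fat, against 90.2, 48, 81.2 and 71.9 in subcutaneous fat, with a difference of -0.09 (adjusted p = 0.905 with limma). MIR412 had a difference of -0.30 and MIR3958, next to MIR495, one of 0.01. MIR127, which is antisense to RTL1 and the most abundant member, had 2365, 1952, 4237 and 7830 rescaled reads in perirenal fat, against 1633, 2421, 2845 and 1796 in subcutaneous fat, where the depots overlapped (difference 0.73, limma adjusted p = 0.135).

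**Figure D2:**
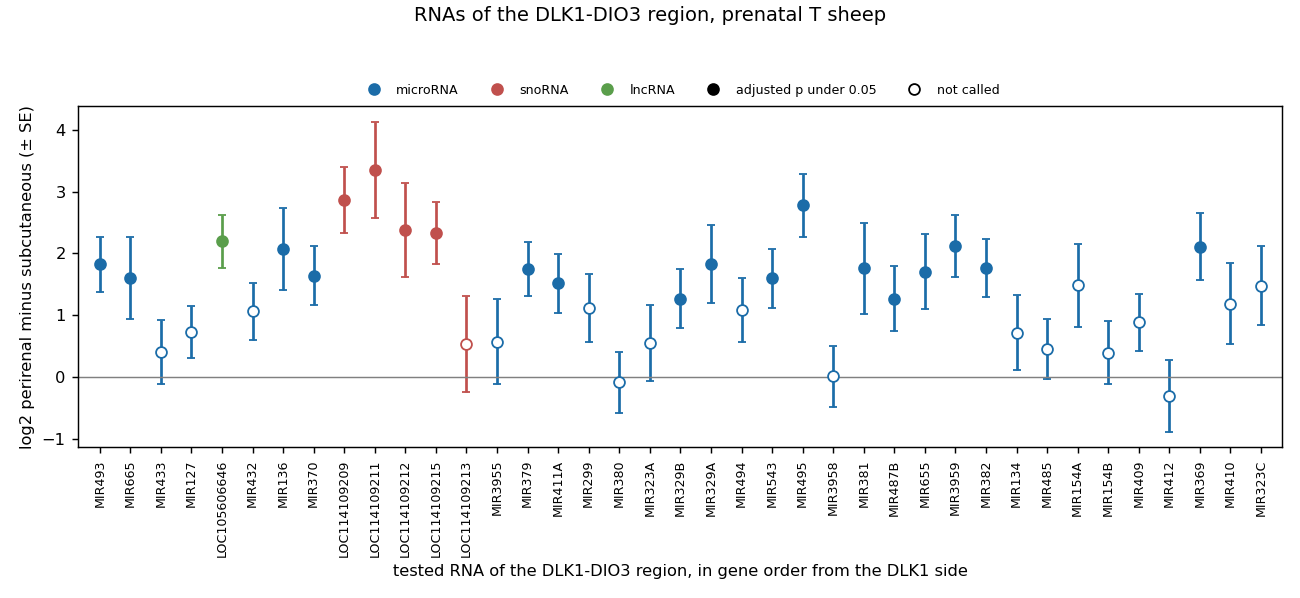
Log2 difference, perirenal minus subcutaneous (± SE), of each tested RNA of the DLK1-DIO3 region in gene order from the DLK1 side, coloured by RNA class, with filled points for those called at an adjusted p under 0.05. Of 33 microRNAs 16 are filled, as are 4 of 5 snoRNAs and the lncRNA LOC105606646, and no filled point lies below 0.

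RNAs of the other classes from the same region rose too. LOC105606646 stretches over the array and was deposited among the lncRNAs, although RefSeq lists it as protein-coding. It had 502, 397, 1108 and 2501 rescaled reads in perirenal fat, against 155, 196, 287 and 142 in subcutaneous fat (difference 2.19, SE 0.43, limma adjusted p = 0.0048, and 1.58 without sheep 255). It overlaps microRNA and snoRNA genes, and the sources do not say how reads in overlapping genes were assigned. Of 33 snoRNA genes inside it 5 passed the filter and 4 were called higher, beside 10.8% of all tested snoRNAs, with a median of 2.38 against 0.18. Without sheep 48 it was 1 of 5, without sheep 255 it was 2 of 3, and in the 16-library fit 1 of 3. The 4 called snoRNAs passed the filter through perirenal fat, with 42 to 80 reads over its libraries, against 2 to 9 in subcutaneous fat. With no filter on low values 19 could be tested, 7 rose and the median was 1.31, beside 18 of 430 snoRNAs that rose. LOC114109209 had 10.8, 12.5, 25.5 and 24.1 rescaled reads in perirenal fat, against 0, 1.83, 2.41 and 2.95 in subcutaneous fat (difference 2.86, SE 0.53, limma adjusted p = 1.32e-05). LOC114109211 had 56 reads over the perirenal libraries and 2 over the subcutaneous ones, a ratio of 25.4 with an exact 95% counting interval of 6.72 to 215. LOC114109212 and LOC114109215 had differences of 2.38 and 2.33. GTL2, the lncRNA gene known as MEG3 in humans, had 18 reads in all perirenal and 10 in all subcutaneous libraries and was too low to test.

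The region was also high in the perirenal library of control sheep 098. It gave 0.884% of microRNA reads to the DLK1-DIO3 microRNAs, and the other 3 perirenal controls 0.462%, 0.655% and 0.723%, against 0.361%, 0.369%, 0.369% and 0.669% in the subcutaneous controls. MIR493 had 482 CPM of microRNA reads in it, against 104 to 225 CPM in subcutaneous controls, and LOC105606646 had 7470 CPM of lncRNA reads, against 1135 to 2862 CPM. MIR379, with 218 CPM, and MIR3959, with 4.19 CPM, were instead within or below the subcutaneous control range of 208 to 247 CPM and 7.05 to 13.3 CPM.

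With limma and all 4 sheep, MIR218A was the only called higher microRNA outside the DLK1-DIO3 region. It lies within SLIT3, which encodes a secreted guidance protein, and had 70.7, 61.6, 54.5 and 549 rescaled reads in perirenal fat, against 11.6, 21.3, 32 and 67.7 in subcutaneous fat. Sheep 255 had the highest value in both depots, and the subcutaneous library of this sheep lay among the other perirenal libraries. In all 4 sheep the perirenal value was higher, with a difference of 1.94 (SE 0.50, limma adjusted p = 0.00122), and 1.57 without sheep 255.

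Among microRNAs that fell, MIR221 and MIR23A changed most. MIR221, which represses the cell cycle inhibitor CDKN1B and declines as human and mouse precursors become adipocytes, had 1432, 769, 587 and 412 rescaled reads in perirenal fat, against 4168, 3368, 3432 and 2950 in subcutaneous fat. The depots were well apart in every sheep, with a difference of -2.26 (SE 0.42, limma adjusted p = 6.65e-06), and MIR221 stayed called under all 14 alternatives. MIR23A, which shares a primary transcript with MIR27A, had 6622, 5306, 3854 and 3401 rescaled reads in perirenal fat, against 18242, 17564, 13075 and 12324 in subcutaneous fat (difference -1.70, SE 0.40, limma adjusted p = 0.000544). Both were low in the perirenal library of control sheep 098 as well, MIR221 with 838 CPM of microRNA reads, against 3781 to 7248 CPM in subcutaneous controls, and MIR23A with 3208 CPM, against 12270 to 26000 CPM. LOC105605445, the lncRNA gene that overlaps MIR221, fell too, by 1.36 (limma adjusted p = 0.00364). How reads in overlapping genes were assigned is not stated, so that its value may not be separate from that of MIR221.

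MIR103, which lies in PANK3 and in mice acts on insulin sensitivity of fat through caveolin-1, had 801, 735, 681 and 608 rescaled reads in perirenal fat, against 1615, 1664, 2411 and 2436 in subcutaneous fat. The perirenal values lay close together and below all subcutaneous ones (difference -1.50, SE 0.42, limma adjusted p = 0.00307). The remaining called microRNAs were MIR106B (-1.40), which lies in MCM7, MIR30D (-1.37), MIR23B (-1.35), MIR374B (-1.28), the near-identical copies MIR181A-1 and MIR181A-2 (-1.19 and -1.17), MIR125B (-1.15) and 3 let-7 genes. Reads of the MIR181A copies cannot be told apart. MIR106B had 882, 1005, 816 and 280 rescaled reads in perirenal fat, against 2369, 1743, 1507 and 1581 in subcutaneous fat, and MIR30D had 3934, 3511, 3939 and 2179, against 8331, 6780, 8332 and 11362. Neither overlapped between the depots.

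Lists of microRNAs by their known part in fat biology gave few calls. Of microRNAs reported to restrain adipocyte formation, 3 of 4 tested fell (MIR221, MIR23A and MIR23B) and MIR27A had a difference of -0.90 (limma adjusted p = 0.0649), with a median of -1.53. With the scaling as deposited 1 of the 4 fell and the median was -0.59, and without sheep 48 there were 2. Of those reported to promote it, 2 of 13 fell (MIR103 and MIR30D), none rose and the median was -0.24, or 0.69 with 4 that rose with the scaling as deposited, and 0.32 with 3 on CPM. Without sheep 255, 1 of the 13 rose and 4 fell, and without sheep 48 there was 1 that fell. In the list for brown and beige fat, 1 of 4 fell (MIR106B, median -0.56, or 0.38 as deposited), and in the proliferation clusters the same microRNA was the 1 of 4 that fell (median -0.85, or 0.08 as deposited). Without sheep 48 or with the scaling as deposited neither of these lists had a call. None of 6 microRNAs of matrix and fibrosis was called with limma, with a median of 0.63, whereas edgeR called 1 higher and DESeq2 2 higher and 1 lower. Without sheep 255, 2 of the 5 then tested rose and their median was -0.07, and as deposited 4 of 6 rose. All these shares stand beside 16% of tested microRNAs that were called lower and 21% called higher.

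The let-7 family, which represses growth genes such as HMGA2 and marks differentiated tissue, filled much of every library. It took 49.1%, 51.8%, 39.9% and 24.99% of microRNA reads in perirenal fat of sheep 48, 185, 233 and 255, against 61.7%, 54.9%, 43.2% and 43.04% in their subcutaneous fat. The share was lower in perirenal fat in 4 of 4 sheep although the depots overlapped (mean difference -9.28 percentage points, exact sign-flip p = 0.13, the smallest possible). Of 7 tested genes MIRLET7B, MIRLET7C and MIRLET7A fell, with a family median of -0.57 that was 0.37 as deposited, where 0 fell and 1 rose, and -0.00 on CPM. Without sheep 48, 1 of the 7 was called lower. MIRLET7B had 66879, 76538, 32346 and 10724 rescaled reads in perirenal fat, against 186877, 158488, 73500 and 73481 in subcutaneous fat (difference -1.62, SE 0.38, limma adjusted p = 0.000544), with MIRLET7C at -1.42 and MIRLET7A at -1.06. Within each sheep the subcutaneous value was the higher one although the depots overlapped across sheep, and without sheep 255 MIRLET7B differed by -1.25. MIRLET7F, from another member gene, differed by 0.69 (limma adjusted p = 0.135), with 39798, 42392, 34511 and 10479 rescaled reads in perirenal fat, against 22253, 18204, 13567 and 16324 in subcutaneous fat. MIRLET7F was called higher in 4 of 14 alternatives, among them the fit without sheep 255 (difference 1.13, limma adjusted p = 0.000336).

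In control sheep the MIRLET7B share overlapped between the depots. MIRLET7B took 26.7% of microRNA reads in the perirenal library of control sheep 098 and 7.89% to 11.4% in the other 3 perirenal controls, against 9.58% to 21.7% in subcutaneous controls.

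MIR143 and MIR10B were higher in perirenal fat in some fits only. Limma with all 4 sheep called neither, and each was called in 5 of 14 alternatives, which were edgeR, DESeq2, CPM, the scaling as deposited and leaving out sheep 255. MIR143, abundant in smooth muscle and reported to promote human adipocyte formation, had 68655, 76009, 76340 and 53746 rescaled reads in perirenal fat, against 23304, 36255, 45019 and 50874 in subcutaneous fat, with no overlap (difference 0.87, limma adjusted p = 0.0627, and 1.12 with adjusted p = 0.00012 without sheep 255). Its share of microRNA reads was 10.7% to 17.5% in perirenal fat, against 2.44% to 7.38% in subcutaneous fat. MIR10B, which lies in HOXD4, a gene of the set that patterns the body axis, took 1.91% to 2.55% in perirenal fat, against 0.693% to 1.13% in subcutaneous fat (log2 difference 0.74, limma adjusted p = 0.121). Its relative MIR10A, in HOXB3, differed by -0.60 (limma adjusted p = 0.224), so that neither of the 2 tested HOX-gene microRNAs was called with limma. In the perirenal library of control sheep 098, MIR143 took 3.72% and MIR10B 0.458% of microRNA reads, both inside the subcutaneous control ranges of 2.11% to 7.26% and 0.2999% to 0.917%.

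Of the 10 most abundant microRNAs, MIRLET7B, MIRLET7C, MIRLET7A and MIR125B fell and the other 6 were not called. MIR125B had 34270, 39096, 29897 and 8180 rescaled reads in perirenal fat, against 62506, 65411, 47592 and 40791 in subcutaneous fat (difference -1.15, limma adjusted p = 0.0134, and -0.77 without sheep 255). The lncRNA gene that overlaps it, LOC105602212, moved the other way, with 4821, 5707, 6617 and 12242 rescaled reads in perirenal fat, against 2826, 3602, 4602 and 4395 in subcutaneous fat (difference 0.86, limma adjusted p = 0.0226). MIR99A, MIR26A, MIRLET7I and MIRLET7G had differences of -0.54, -0.20, -0.45 and -0.23, each of which changed sign with the scaling as deposited and on CPM.

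Of the markers of other cell types none was called with limma. Other fits called 2 of them higher, MIR143 of smooth muscle as given above and MIR200B, which was called with edgeR, with the scaling as deposited and in the 16-library fit. MIR133, a microRNA of striated muscle, had 193 to 334 CPM of microRNA reads in perirenal fat, against 132 to 497 CPM in subcutaneous fat, and MIR150 of lymphocytes 879 to 5242 CPM, against 1375 to 4219 CPM. MIR194, of kidney and other epithelia, had 102.99 to 338 CPM in perirenal fat, against 54.8 to 201 CPM in subcutaneous fat. MIR200A and MIR200B, of epithelium and mesothelium, reached 56.8 and 129 CPM in the perirenal library of sheep 255. They were at most 4.29 and 10.4 CPM in the other perirenal libraries, and at most 1.78 and 9.13 CPM in subcutaneous libraries. In CPM, MIR194, MIR200A and MIR200B were each higher in perirenal fat in 4 of 4 sheep (exact sign-flip p = 0.13, the smallest possible). This held in 3 sheep for MIR150 and in 2 each for MIR133 and MIR200C. In rescaled reads the log2 difference of MIR194 was 0.06. MIR200C, on another transcript, had 13.7 to 18.1 CPM in perirenal fat, against 10.7 to 26.1 CPM. Their part in the results was not tested. Markers of endothelium, myeloid and red blood cells, skin, nerve and liver on the lists were not among the microRNAs of the files, and no microRNA on the lists marks the adipocyte itself.

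SnoRNAs outside the DLK1-DIO3 region changed in both directions. The 25 called snoRNAs, region included, became 1 without sheep 48, 17 without sheep 185, 10 without sheep 233, 18 without sheep 255 and 2 in the 16-library fit. Taken as a class they made up 0.469%, 0.277%, 0.373% and 0.576% of reads in perirenal fat of sheep 48, 185, 233 and 255, against 1.14%, 0.835%, 0.738% and 0.859% in subcutaneous fat. No perirenal library reached the subcutaneous range (exact sign-flip p = 0.13, the smallest possible). The snoRNA share was 2.42% in the perirenal library of control sheep 098 and 0.301% and 0.425% in epicardial libraries of prenatal T sheep 185 and 255, against 1.37% to 1.97% in the other 6 epicardial libraries.

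Differences of single snoRNAs are relative to the other snoRNAs. LOC114117661 and LOC114117663, which lie inside the lncRNA gene LOC105609544 beside ZNFX1, fell together with it. Here too, how reads in overlapping genes were assigned is not stated. LOC114117661 had 451, 381, 309 and 260 rescaled reads in perirenal fat, against 749, 793, 713 and 835 in subcutaneous fat (difference -1.17, SE 0.22, limma adjusted p = 1.32e-05), and LOC114117663 differed by -0.84. The host LOC105609544 had 633, 387, 533 and 865 rescaled reads, against 2343, 1808, 1542 and 1805 (difference -1.67, SE 0.27, limma adjusted p = 0.00243). In perirenal fat of control sheep 098 the snoRNA LOC114117661 was at 47310 CPM of snoRNA reads, below the subcutaneous control range of 86390 to 144400 CPM, whereas LOC105609544 was at 18120 CPM of lncRNA reads, inside the range of 14320 to 27950 CPM. In perirenal fat of control sheep 131, 132 and 201, LOC105609544 was below that range, at 4865, 4426 and 4310 CPM.

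Other called snoRNAs are given with the gene that holds them. LOC114114232, in the ATP synthase gene ATP5F1B, had 3.86, 7.82, 2.84 and 4.83 rescaled reads in perirenal fat, against 21.9, 12.8, 27.7 and 23.6 in subcutaneous fat (difference -1.97, SE 0.40, limma adjusted p = 7.76e-05). LOC114109253 in PRPF39 (-1.68), LOC114118623 in RPS3 (-1.58) and LOC114110518 in C23H18orf32 (-1.42) were lower as well. So were LOC114115928 in RPL4 (-1.11), LOC114118580 in RPL27A (-1.08) and LOC114114264 in RPL3 (-0.96). LOC114115928 and LOC114118580 were each called in 5 of 13 alternatives. Among those that were higher were LOC114110368 in CWF19L1 (1.91) and its near-identical copy LOC114109248 (1.85). LOC114110701 in RPS2 was higher (1.36), as was LOC114110702 (1.57), which had 91.2, 68.8, 93.7 and 117 rescaled reads in perirenal fat, against 14.2, 22.8, 38.6 and 64 in subcutaneous fat. The values are low, and several rest on fewer than 10 rescaled reads in 1 depot.

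The snoRNAs LOC114109176, LOC114109177 and LOC114109179 lie between SNRPN and UBE3A, an interval that in humans holds imprinted snoRNA clusters. They were the 3 that passed the filter of 31 in that interval, had near-identical values and count as 1 measurement. LOC114109176 had 146, 147, 102.2 and 28.95 rescaled reads in perirenal fat, against 67.1, 91.3, 26.5 and 29.5 in subcutaneous fat. The perirenal value of sheep 255 lay no higher than its subcutaneous one (difference 0.92, limma adjusted p = 0.0258, and 0.38 with the scaling as deposited, where none of the 3 was called). None was called with edgeR or DESeq2 either, or without sheep 48, sheep 185 or sheep 233.

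The 20 called snRNAs came down to 8 distinct measurements, of 22 tested, once near-identical copies were taken as 1. Counted in that way, 83 of 379 were called over all classes. The 7 copies from LOC114117112 to LOC114117120 were lower in perirenal fat with differences of -0.88 to -0.81. LOC114117120 had 38.2, 37.9, 52.7 and 71.4 rescaled reads in perirenal fat, against 90.3, 75.0, 101.1 and 95.02 in subcutaneous fat. LOC114110196, beside WDR74, fell by 0.74 (limma adjusted p = 0.000947) with 48.8 to 79.7 rescaled reads, against 95.4 to 126.7. A second set of copies between HJV and FCGR1A was higher, among them LOC114111395 with 38.2, 23.3, 42.2 and 56.8 rescaled reads in perirenal fat, against 10.3, 15.7, 10.6 and 11.2 in subcutaneous fat (difference 1.62, limma adjusted p = 0.0155). LOC114109164 and LOC114109197 were raised mainly in sheep 48, with 48.1 and 46.1 rescaled reads in its perirenal library and at most 8.32 in the others. This class rests on 682 to 2245 reads per library, and edgeR on the recovered reads called none of the 35, with 7 at an unadjusted p under 0.05. Limma called 1 of 32 without sheep 48, 21 of 30 without sheep 185, 0 of 35 without sheep 233 (7 at an unadjusted p under 0.05) and 9 of 41 without sheep 255.

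Among lncRNAs, LOC105603449, which overlaps MITF, had 23.9, 19.3, 12.1 and 1.09 rescaled reads in perirenal fat and 0 in all 4 subcutaneous libraries. Against a floor of 3 reads over the subcutaneous libraries it was at least 15.4-fold higher in perirenal fat (limma adjusted p = 0.0381). LOC105609847 had 70.9, 120, 41.9 and 1.09 rescaled reads in perirenal fat, against 0, 2.32, 6.13 and 2.69 in subcutaneous fat (difference 3.28, SE 0.85, limma adjusted p = 0.0248). Sheep 48, 185 and 233 were high in perirenal fat and sheep 255 was not: without it the difference was 4.64 (SE 0.56, adjusted p = 0.00018).

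LOC114115610 and LOC105612888 were likewise high in 3 sheep and low in sheep 255. LOC114115610 had 29.8, 49.8, 26.5 and 2.18 rescaled reads in perirenal fat, against 9.70, 0, 0 and 2.69 in subcutaneous fat (difference 2.94, limma adjusted p = 0.0348). LOC105612888 had 165, 321, 113 and 13.1, against 29.1, 30.2, 15.3 and 24.2 (difference 1.95, limma adjusted p = 0.0381), so that sheep 255 had less in perirenal than in subcutaneous fat. LOC114111513 (2.87) and LOC114109624 (61 against 3 reads, a ratio of 10.8 with an exact 95% counting interval of 3.53 to 53.9) were also lowest in sheep 255 among perirenal libraries. The files give these genes no name or role. LOC105603449, LOC105609847, LOC114115610, LOC114111513 and LOC114109624 were low in subcutaneous fat and passed the filter on low values through perirenal fat. With no filter 2004 lncRNAs could be tested, of which 25 rose and 4 fell.

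**Figure D3:**
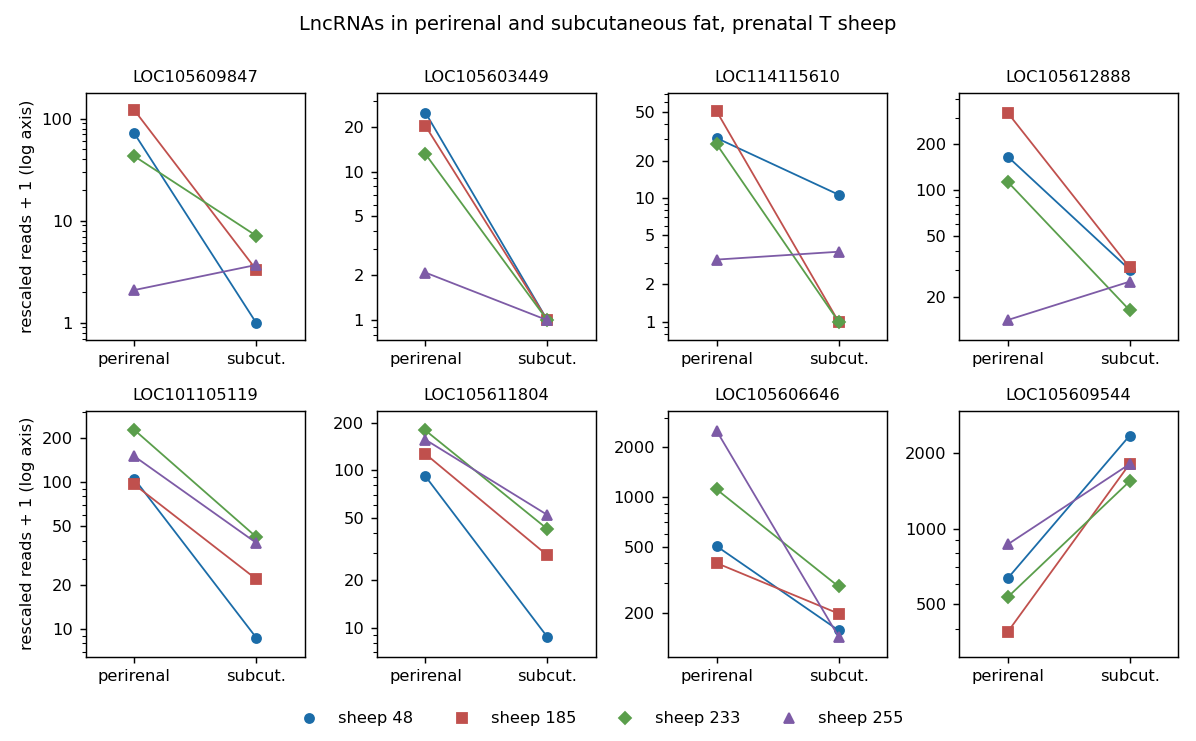
Rescaled reads + 1 (log axis) of 8 lncRNAs in perirenal (left) and subcutaneous (right) fat of the 4 prenatal T sheep, with a line for each sheep. In the upper row sheep 255 is at 1.09 to 13.1 rescaled reads in perirenal fat while the other 3 sheep are at 12.1 or above, and in the lower row all 4 sheep move the same way.

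LOC101105119, between RHBG and MEF2D, and LOC105611804, which overlaps RGS13, were raised in all 4 sheep. LOC101105119 had 104, 95.2, 225 and 148 rescaled reads in perirenal fat, against 7.76, 20.9, 41.4 and 37.6 in subcutaneous fat (difference 2.52, SE 0.37, limma adjusted p = 0.00243). LOC105611804 had 90.4, 125.6, 178 and 155, against 7.76, 27.9, 41.4 and 51.0 (difference 2.29, SE 0.38, limma adjusted p = 0.00243). Lower in perirenal fat, besides LOC105609544 and LOC105605445, were LOC114113974 (-1.72), LOC105603235 (-1.31), LOC101110918 (-1.28), LOC114116825 (-1.18), LOC106990385 (-1.12) and LOC114116957, which overlaps ERN1 (-1.03). Without sheep 185 none of the lncRNAs was called (30 at an unadjusted p under 0.05), without sheep 233 there were 9, without sheep 48 there were 12 and without sheep 255 there were 49.

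Some of the raised lncRNAs were without reads or low in perirenal fat of control sheep 098, whose library is of the later set. LOC105609847 was at 0 CPM of lncRNA reads in control sheep 098 and at 504.5 to 1680 CPM in the other 3 perirenal controls, against 17.5 to 32.7 CPM in subcutaneous controls. LOC105603449 was likewise at 0 CPM in sheep 098 and at 145 to 297 CPM in the other 3. LOC101105119 had 299 CPM in sheep 098 and 659 to 1315 CPM in the others, against 110 to 375 CPM. LOC105611804 had 244.5 CPM in sheep 098 and 1079 to 1391 CPM in the others, against 89.94 to 461.6 CPM. LOC105605445 was instead low in all 4 perirenal controls, at 7633 CPM in sheep 098 and 9509 to 16460 CPM in the others, against 35650 to 56690 CPM in subcutaneous controls.

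**Figure D4:**
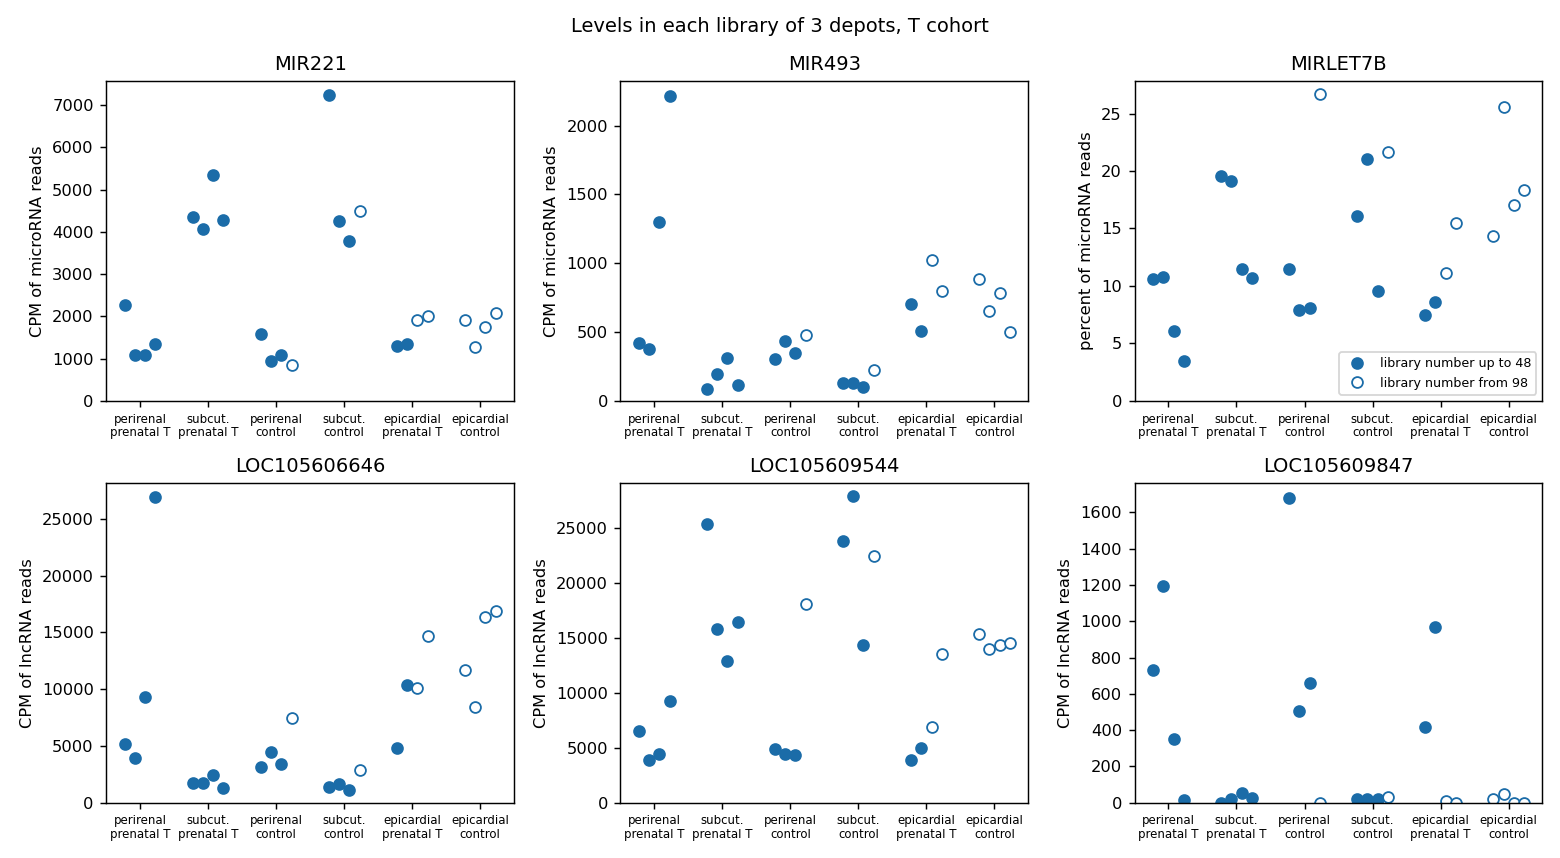
CPM of lncRNA or microRNA reads, or percent of microRNA reads for MIRLET7B, of 6 RNAs in every perirenal, subcutaneous and epicardial library of prenatal T and control sheep, with open points for libraries numbered from 98. For MIR221, MIR493 and LOC105606646 the open perirenal point lies with the other perirenal points, and for MIRLET7B, LOC105609544 and LOC105609847 it does not.

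The same depots were then compared in the control sheep, with which the prenatal T sheep share no library. Library number was largely ordered with depot here too. The perirenal library had the higher number in control sheep 098, 131 and 132, and the lower one in control sheep 201. The part of library number in the shared signs below was not tested. Of the 99 called features 97 could be tested over all 16 libraries, and 94 of these (96.9%) had the same sign in control sheep, beside 78.0% of the 404 features tested in both. Of the 97, 23 were called in control sheep, where 33 of 431 features were called in all (7.66%). For the 16-library fit the count in prenatal T sheep was 50 of 431 (11.6%). Without control sheep 098, 94 features were called in control sheep.

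No feature differed in its depot difference between prenatal T and control sheep at an adjusted p under 0.05 (0 of 431, 0.0%) with limma. An unadjusted p under 0.05 was reached by 7, and edgeR and DESeq2 also called 0, with 6 and 3 at an unadjusted p under 0.05. With a term for the library set that number was 33, and without control sheep 098 it was 29, with 0 called in each. MIR221 differed by -2.22 in prenatal T and by -2.35 in control sheep, a difference between treatments of 0.13 (SE 0.51). MIR23A differed by -1.66 and -1.65 (difference -0.01, SE 0.50). MIR495 differed by 2.82 in prenatal T and by 1.37 in control sheep, 1.45 apart (SE 0.65, limma adjusted p = 0.758). LOC114116825 had the smallest unadjusted p in this test, 0.0139, with -1.15 in prenatal T and 0.22 in control sheep, and LOC105603415, which overlaps THUMPD3, differed by 0.80 and -0.66 (adjusted p = 0.998 for both with limma). The median SE of the difference between treatments was 0.64 over the 431 features.

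**Figure D5:**
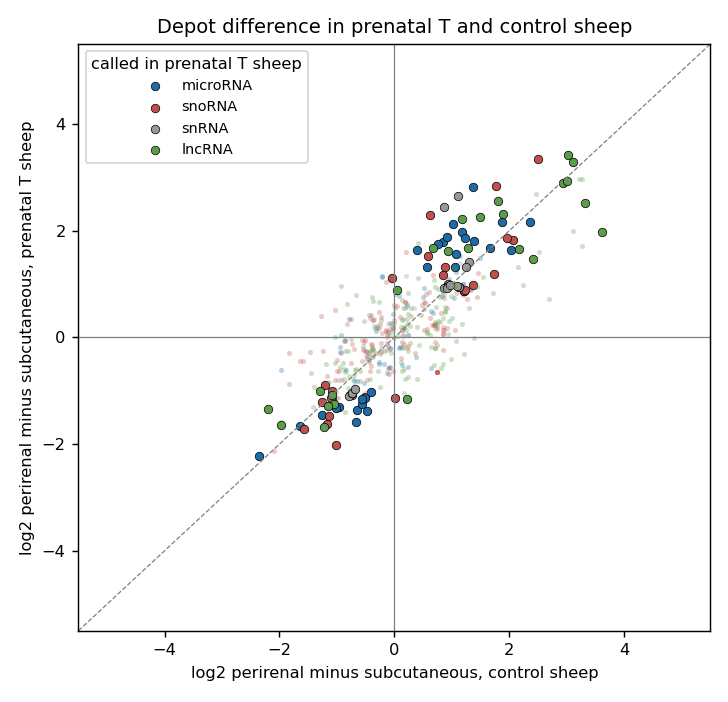
Log2 difference, perirenal minus subcutaneous, in prenatal T sheep (vertical) against control sheep (horizontal) for 431 features, with large points for features called in prenatal T sheep and a dashed line of equality. Of the 97 large points 94 lie where both differences have the same sign.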

How the data were processed

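Small RNA was sequenced from adipose tissue with a NEBNext small RNA kit, per the labels' protocols. The submitters' processing notes list cutadapt 3.2, STAR 2.6.0c and featureCounts 1.6.1, without a genome build. As deposited by the authors, each value is a signal: reads over a size factor set within a depot and RNA class, from the values themselves. Whole reads were recovered (tolerance 1e-05) and brought to 1 scale across the compared libraries through median ratios, which moved perirenal against subcutaneous values by 0.94 (microRNA), -0.54 (snoRNA), 0.21 (snRNA) and 0.56 (lncRNA) log2 units from the deposited scale. Features with a mean of at least 5 were tested on log2(value + 1) with limma 3.58.1 (R 4.3.3), trended, with sheep as a block. The labels give 1 sheep number to both depots, so the libraries are paired by the labels. Deviations of the 4 pairs correlated at 0.389, 0.271, 0.047 and 0.310, and pairs of different sheep at -0.399 to 0.332. Treatments were compared by the interaction over 16 libraries.

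Alternatives were edgeR 4.0.16 and DESeq2 1.42.0 on recovered reads, other scalings, pseudocounts and filters, and leaving out each sheep. Library pairs of a group differed by chi-square per degree of freedom of 22.1 to 868, and all were counted. Named features were the members of fixed lists and, among called features, the 10 microRNAs, 6 lncRNAs, 4 snoRNAs and 4 snRNAs of each sign with the largest difference, the 10 most abundant microRNAs and the 3 smallest p of the interaction, with others named in passing after their values were seen. Members and lists were chosen with earlier results of these data known. Gene names and neighbours came from RefSeq (ARS-UI_Ramb_v3.0), which held every microRNA, 621 of 694 snoRNAs, 1010 of 1148 snRNAs and 1404 of 2973 lncRNAs. Each value is 1 per gene, so arms of a microRNA hairpin are not separated, and intervals and floors cover counting error only. The test was tried on simulated data first.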

Additional observations from a re-analysis of the deposited data

Results flagged for a closer look

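Values of 188 groups of 4 libraries were examined, and in 13 of them 1 library lay far from the other 3 by Dixon's criterion, which chance alone meets in about 1 in 20 groups. The perirenal library of sheep 255 accounted for 8. In it MIR218A was high (549 rescaled reads), MIR106B (280), MIR26A (27230), MIRLET7F (10480) and MIR10B (6367) were low, MIR125B was low as a share of microRNA reads (2.67%), and MIR200A (56.8 CPM) and MIR200B (129 CPM) were high. Sheep 233 was high for MIR329A in perirenal fat (18.4 rescaled reads) and for MIR379 in subcutaneous fat (312). In subcutaneous fat, LOC114109211 was high in sheep 255 (1.97), LOC114111412 was high in sheep 185 (17.6), and MIR665 was low in sheep 48 (0).

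Called lncRNAs were also looked up in epicardial and visceral fat of prenatal T sheep, which take no part in the comparison, for libraries above 5 times the highest control library of that depot. In epicardial fat of sheep 185 and 255, LOC114111513 had 190.7 and 781 CPM of lncRNA reads, LOC105609847 had 418 and 968.5 CPM, LOC105603449 had 98.4 and 333 CPM, and LOC114109624 had 92.3 and 219 CPM. LOC114111311 (521 CPM) and LOC114115610 (583 CPM) were high in sheep 255 and LOC114115026 (61.5 CPM) in sheep 185. All epicardial control libraries are of the later set, whereas the epicardial libraries of sheep 185 and 255 are not. In the later-set epicardial libraries of sheep 48 and 233, LOC114111513 had 23.1 and 48.7 CPM, against at most 34.9 CPM in controls. LOC114111311 had 80.7 and 0 CPM in them, against at most 79.9 CPM. The part of the library set in these epicardial values was not tested. In visceral fat of sheep 255, LOC105612547 had 8892 CPM, LOC114110111 12130 CPM, LOC105603235 1230 CPM and LOC101110918 11630 CPM. That library held 28452 lncRNA reads, or 5.99% of its reads over all classes, against 11.3% to 13.6% in visceral controls. The visceral libraries of prenatal T sheep 48, 185 and 233 are of the later set, whereas that of sheep 255 is not. The part of the low lncRNA share and of the library set in these visceral values was not tested.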

How the results depend on the processing

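Without the sheep block (no replicate block) 57 of 417 features were called, 35 higher and 22 lower, and 56 of them were among the 99. The 16 DLK1-DIO3 microRNAs that rose became 7 and the 3 let-7 genes that fell became 0. In the 16-library fit 50 were called, 27 higher and 23 lower, 47 of them shared. Leaving out 1 sheep gave 20 to 65 higher and 7 to 44 lower. With the scaling as deposited 92 were higher, and with a mean of at least 20 there were 36. The total lay between 68 and 125 under scalings, pseudocounts, filters, edgeR and DESeq2. In control sheep the count of 33 was 82 with a term for the library set and 10 to 94 when 1 sheep was left out, 94 being without sheep 098, 12 without 131, 10 without 132 and 14 without 201. The test of depot by treatment gave 0 to 1 calls when 1 sheep was left out, the 1 without sheep 132, and 0 otherwise. Without the block the control count was 43 and that of depot by treatment 0. The cause of these shifts was not tested. Fits that leave out a sheep also hold fewer samples.

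No called feature that is named reversed under any alternative run. Among uncalled ones, with the scaling as deposited MIR99A was at 0.39, MIR26A at 0.73, MIRLET7I at 0.49, MIRLET7G at 0.71, MIR10A at 0.33, MIRLET7D at 0.37, MIR133 at 0.32, MIR150 at 0.52 and MIR200C at 0.24, and on CPM MIR99A was at 0.022, MIR26A at 0.36, MIRLET7I at 0.11, MIRLET7G at 0.34 and MIR150 at 0.15. Leaving out 1 sheep moved MIRLET7G between -0.49 and 0.17, MIR150 between -0.84 and 0.13 and MIR194 between -0.15 and 0.21. The mean difference in share ranged from -0.588 to 0.649 percentage points for MIR99A, and in CPM from -132 to 25.7 for MIR133 and from -4.35 to 1.48 for MIR200C. Low counts limit the snRNAs, with 682 to 2245 reads per library, and the snoRNAs, with 3454 to 8174.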
